A study of Mus musculus with 62 samples.

Results

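The thermogenic and beige fat genes described here are 8 genes whose products make, fuel or control heat production in adipocytes. They were taken by symbol from a table of 48795 genes in the fat of WT and Fam13a KO mice, and all 8 were found: Ucp1 (ENSMUSG00000031710.4), Cox8b (ENSMUSG00000025488.9), Cox7a1 (ENSMUSG00000074218.3), Otop1 (ENSMUSG00000051596.13), Ppargc1a (ENSMUSG00000029167.13), Prdm16 (ENSMUSG00000039410.16), Dio2 (ENSMUSG00000007682.5) and Elovl3 (ENSMUSG00000038754.4). RNA-seq was run on 62 libraries: SAT (subcutaneous, inguinal fat), VAT (visceral, gonadal fat) and liver from male WT and KO mice on chow or on HFD (high-fat diet), and SAT and VAT from female WT and KO mice on HFD. These made 46 fat libraries in 12 groups and 16 liver libraries, with 4 to a group except for the WT females, whose SAT and VAT had 3 each. The KO mice lacked Fam13a in the whole body, from ES cells with LoxP sites around an exon, on a C57BL6 background, so the deletion was not limited to fat. Females on chow and female liver were not analysed here. The labels give no ages, and the authors do not state the age of the chow mice used for RNA-seq. An age difference between chow and HFD mice therefore cannot be told apart from diet. Whole tissue was sampled, so fewer cells of a type and less RNA per cell cannot be told apart. The labels do not tie libraries to separate mice, so p-values measure only the spread between these libraries.

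Brown and beige adipocytes burn fuel to make heat, while white adipocytes store it. UCP1 sits in the inner mitochondrial membrane and lets protons flow back without making ATP, which runs the respiratory chain at full speed and releases the energy as heat. Cold makes sympathetic nerves release noradrenaline, and beta-adrenergic receptors then raise cAMP, which turns on Ucp1, Dio2 and Ppargc1a through cAMP response elements. In mice the inguinal depot can gain many beige cells in the cold, and the gonadal depot gains few.

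In the GENCODE M21 annotation of GRCm38, Ucp1 lies at chr8:83290352-83298452 (+), Cox8b at chr7:140898945-140900446 (-), Cox7a1 at chr7:30184144-30186078 (+), Otop1 at chr5:38275972-38304217 (+), Ppargc1a at chr5:51454250-51567726 (-), Prdm16 at chr4:154316125-154636873 (-), Dio2 at chr12:90724552-90738438 (-) and Elovl3 at chr19:46131897-46135694 (+). The promoters of 7 of the 8 genes were found in RefSeq (GRCm38.p6, 250 bases before to 50 bases after the RefSeq start), all but Elovl3. They were searched on both strands for the core letters of the cAMP response element (TGACG, or CGTCA on the other strand) and for AGGTCA, a core that nuclear receptors bind (TGACCT on the other strand). The cAMP core was in 20.8% of 32817 mouse promoters of this length and in 3 of the 7, those of Ucp1, Ppargc1a and Dio2. The nuclear receptor core was in 16.3% of all promoters and in 1 of the 7, that of Ucp1. The 5 printed here are the 3 that hold the cAMP core and those of Otop1 and Cox8b, the genes called between KO and WT in SAT, and they are given 5′ to 3′ along each gene's own strand with the cAMP core in capitals. The Ucp1 window is chr8:83290098-83290397 (+), Ppargc1a chr5:51567676-51567975 (-), Dio2 chr12:90738989-90739288 (-), Otop1 chr5:38277154-38277453 (+) and Cox8b chr7:140900397-140900696 (-). A match is a description of letters, and the absence of one says only that those letters are not in the window.
Ucp1: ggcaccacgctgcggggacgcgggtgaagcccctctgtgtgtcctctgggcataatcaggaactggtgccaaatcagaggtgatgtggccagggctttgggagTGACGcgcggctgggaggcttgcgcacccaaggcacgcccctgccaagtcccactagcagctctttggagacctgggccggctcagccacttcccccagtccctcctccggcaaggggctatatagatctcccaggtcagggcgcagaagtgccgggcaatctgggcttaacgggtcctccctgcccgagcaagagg
Ppargc1a: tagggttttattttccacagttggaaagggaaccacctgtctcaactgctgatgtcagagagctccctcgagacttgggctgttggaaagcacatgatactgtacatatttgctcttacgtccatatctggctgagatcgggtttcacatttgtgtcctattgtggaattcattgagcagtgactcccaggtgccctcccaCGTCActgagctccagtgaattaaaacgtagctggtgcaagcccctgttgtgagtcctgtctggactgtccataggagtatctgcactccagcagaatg
Dio2: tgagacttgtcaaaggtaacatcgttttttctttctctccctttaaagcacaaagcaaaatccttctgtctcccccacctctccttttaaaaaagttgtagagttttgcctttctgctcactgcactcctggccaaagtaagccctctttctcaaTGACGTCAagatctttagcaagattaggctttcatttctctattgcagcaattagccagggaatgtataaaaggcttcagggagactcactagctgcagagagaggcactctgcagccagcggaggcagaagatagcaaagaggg
Otop1: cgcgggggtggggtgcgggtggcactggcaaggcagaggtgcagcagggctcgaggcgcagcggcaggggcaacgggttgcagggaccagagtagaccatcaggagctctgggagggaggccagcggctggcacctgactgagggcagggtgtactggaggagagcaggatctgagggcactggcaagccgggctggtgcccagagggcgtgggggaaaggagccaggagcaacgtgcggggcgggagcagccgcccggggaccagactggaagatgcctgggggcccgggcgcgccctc
Cox8b: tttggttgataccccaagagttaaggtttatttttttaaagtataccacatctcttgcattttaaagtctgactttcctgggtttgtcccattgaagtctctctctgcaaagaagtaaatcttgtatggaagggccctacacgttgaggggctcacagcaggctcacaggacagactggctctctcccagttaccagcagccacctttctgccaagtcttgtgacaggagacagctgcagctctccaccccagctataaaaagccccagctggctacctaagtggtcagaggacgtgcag
The match began 147 bases before the start in Ucp1 and 49 bases before it in Ppargc1a. In Dio2, matches on the 2 strands began 95 and 92 bases before the start and overlapped.

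The libraries held 4959783 to 28723319 counts, with a median of 21694089, and the only ribosomal RNA gene counted for this share took 0.0127% to 75.4% of them. The lowest and highest of these values were all in liver libraries, which no comparison used. The ribosomal share in male chow SAT was 22.6%, 18.3%, 0.0259% and 14.4% in WT and 18.2%, 0.0213%, 0.0211% and 3.24% in KO. Counts there were 9100628 to 18251104 in WT and 10207600 to 26209382 in KO. The highest share was 23.7% in WT and 9.28% in KO in female SAT, and 3.42% and 7.27% in male HFD SAT. In VAT the highest share was 25.7% in WT and 16.8% in KO in males on chow. It was 40.1% and 38.8% in male HFD VAT, and 4.06% and 7.41% in female VAT. The VAT libraries at 40.1% and 38.8% held 8544327 and 6953604 counts. The part of ribosomal share and depth in the KO, depot, diet and sex differences was not tested. The targeted gene Fam13a was lower in KO than in WT in SAT (log2 fold change -0.74, SE 0.17, adjusted p = 0.0323) and in the fat of males (log2 fold change -1.12, SE 0.29, adjusted p = 0.0416), and its difference in VAT did not pass the test (log2 fold change -1.01, SE 0.38, adjusted p = 0.474). In male chow SAT the WT libraries held 234 to 282 CPM of it (read counts scaled to the size of the library) and the KO libraries 80.7 to 185 CPM, and in male HFD SAT 54.5 to 70.8 CPM and 26.1 to 44.1 CPM, without overlap in either. The genotypes overlapped in female SAT and in all 3 VAT groups. The count covers the exons outside the deleted part too, so the level checks the genotype labels only in part. The library titles give the sequencing lane: in males, WT and KO libraries of a depot and diet shared a lane apart from 1 HFD SAT WT library and 2 HFD libraries run on another flow cell. SAT and VAT, and chow and HFD, were run on different lanes for the most part. Females and males on HFD shared no lane within a depot, so lane cannot be told apart from depot, diet or sex. In female SAT 2 of 3 WT libraries were on another lane than the 4 KO libraries. Skeletal muscle RNA stood out in 3 SAT libraries, with 1872, 525 and 179 CPM of Ckm, the muscle creatine kinase, in a male chow KO, a female WT and a male HFD WT library.

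Levels were compared between genes in TPM (counts divided by gene length and scaled to the library). By median over the 46 fat libraries, Cox8b, a subunit of cytochrome c oxidase, stood at 65.8 TPM (range 10.3 to 223). Cox7a1, another subunit of that enzyme, followed at 11.4 TPM, and Otop1, a proton channel, at 5.20 TPM. The regulators Ppargc1a and Prdm16 lay close together at 2.44 and 2.25 TPM, with ranges of 0.526 to 6.37 and 0.669 to 5.72 TPM. Ucp1 itself was near the bottom at 0.642 TPM with a highest library of 23.6 TPM, beside Elovl3 at 0.535 TPM and Dio2 at 0.315 TPM. The ranges of neighbours in this order overlapped throughout. The lowest genes rested on few reads: Ucp1 had under 10 counts in 28 of the 46 fat libraries, Elovl3 in 26 and Dio2 in 16, against 7 for Cox7a1, 4 for Otop1 and 0 for Cox8b, Ppargc1a and Prdm16.

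**Figure D1:**
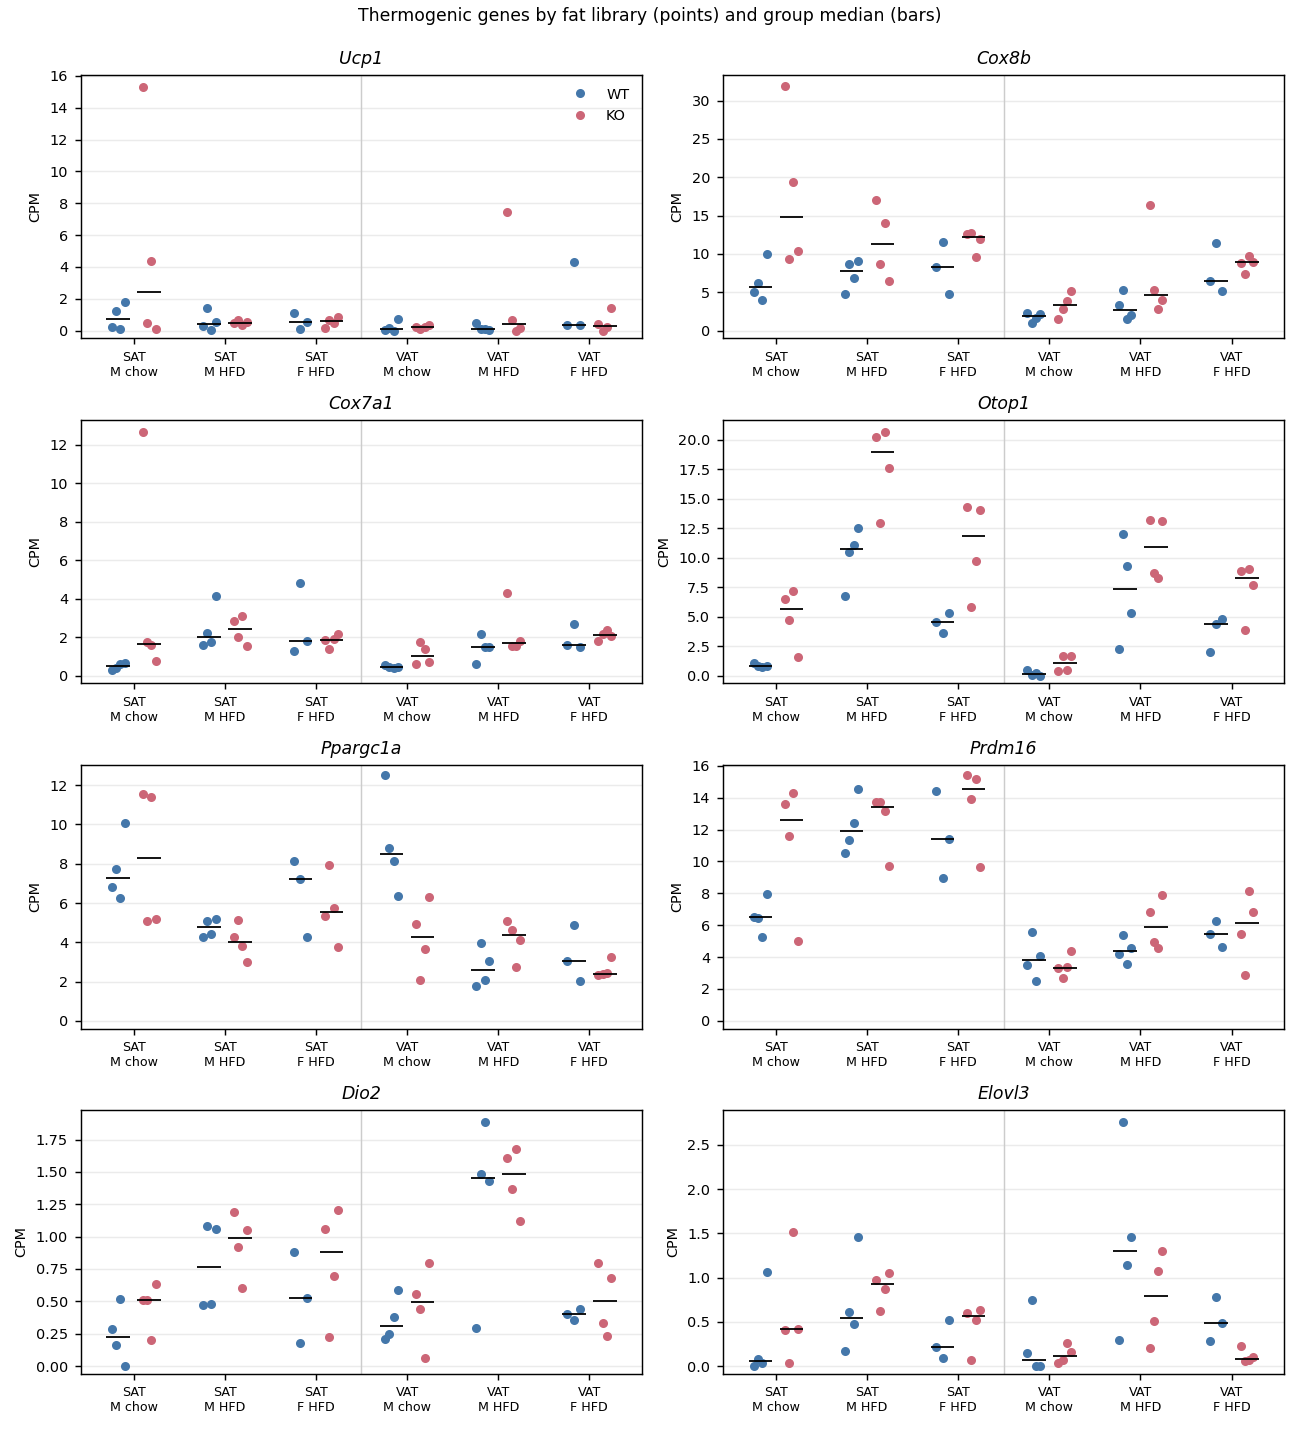
Each panel plots 1 gene in CPM (linear axis from 0) for the 6 combinations of depot, sex (M, F) and diet, WT in blue and KO in red, each point a library and each black bar a group median. Otop1 in KO lies above WT in all 3 SAT groups, and Ucp1 panels are set by 4 libraries between 4.33 and 15.3 CPM.

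Single libraries carried the group means of Ucp1. In male chow SAT of KO mice the 4 libraries held 15.3, 0.479, 4.40 and 0.127 CPM, and those of WT 0.192, 1.21, 0.110 and 1.79 CPM. The highest library stood on 151 counts and the lowest on 3, and the KO mean of 5.08 ± 7.09 CPM (SD, n = 4) was 1.67 CPM without the highest. In male HFD VAT the KO libraries held 7.43, 0.685, 0 and 0.151 CPM and the WT libraries 0.446, 0.0889, 0.118 and 0.0357 CPM, so that 1 library with 111 counts set a mean of 2.07 CPM that was 0.279 CPM without it. In female VAT the WT libraries held 0.324, 4.33 and 0.356 CPM, and the mean of 1.67 CPM was 0.340 CPM without the highest. In each of these groups the highest library was at least 3 times the next.

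The same count over all 12 fat groups set the genes apart. The highest library held over 50% of its group's summed CPM in 9 groups for Ucp1 (median share 64.6%) and in 8 for Elovl3 (50.5%), against 2 for Cox7a1 and for Dio2, 1 for Cox8b and for Otop1 and 0 for Ppargc1a and Prdm16, whose highest shares were 48.9% and 41.5%. The library highest in Ucp1 was also the highest of its group for Ppargc1a in 8 of 12 groups, for Cox8b, Cox7a1 and Dio2 in 5, for Prdm16 in 4, for Elovl3 in 3 and for Otop1 in 1. With so few libraries to a group, part of these matches is to be expected by chance, and they were not tested.

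**Figure D2:**
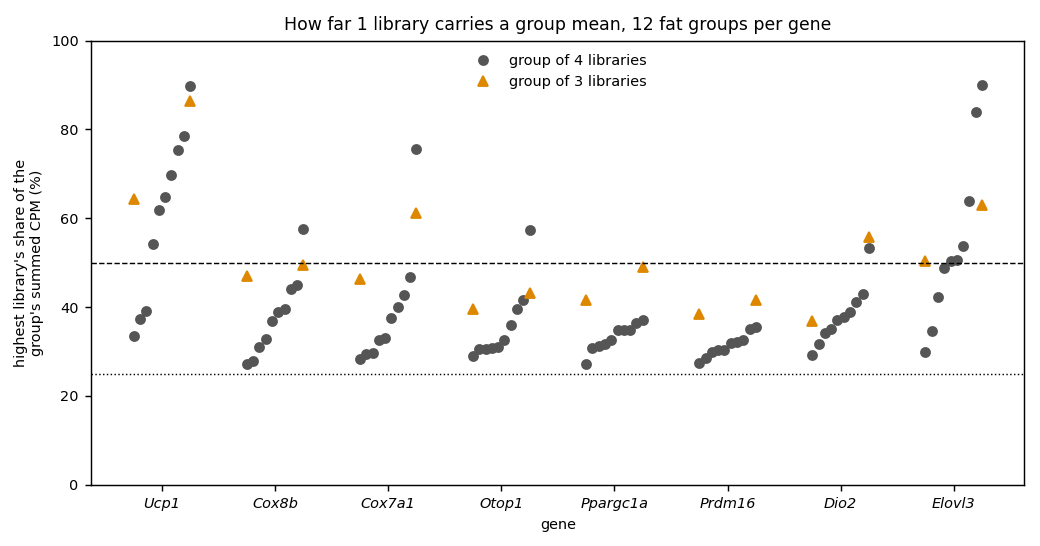
For each gene, the 12 points are the fat groups and the y axis is the percent of the group's summed CPM held by its highest library (circles, groups of 4; triangles, groups of 3; lines at 25% and 50%). Ucp1 reaches 89.9% and Elovl3 90.0%, while all Prdm16 groups stay between 27.3% and 41.5%.

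The 4 libraries highest in Ucp1 differed in how much muscle RNA they held. The male HFD VAT library of a KO mouse held 16.3 CPM of Cox8b against 2.78 to 5.30 CPM in the other 3 of its group, 4.28 CPM of Cox7a1 against 1.54 to 1.79 CPM and 5.49 CPM of Cidea, a lipid droplet protein high in brown fat, against 0.435 to 1.88 CPM. Its Ckm was 0.268 CPM. The female VAT library of a WT mouse was likewise high in Cox8b (11.4 against 5.16 to 6.52 CPM) and in Cidea (4.23 against 0.667 to 1.30 CPM), with Ckm at 0. The chow SAT library of a KO mouse with the most Ucp1 had 31.8 CPM of Cox8b and 12.7 CPM of Cox7a1 and was also the library with 1872 CPM of Ckm, and the chow SAT KO library with 4.40 CPM of Ucp1 had 19.4 CPM of Cox8b and 9.77 CPM of Cidea with 8.36 CPM of Ckm. Otop1 in the VAT library of the KO mouse was 13.3 CPM, beside 8.26 to 13.1 CPM in the others of its group.

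Between depots, the question was which of these genes were higher in the subcutaneous fat. In males on chow, 5 of the 8 genes were higher in SAT than in VAT and 0 were lower at an FDR of 10%, while 20.8% of the 19873 genes tested were called higher. These were Ucp1, Cox8b, Cox7a1, Otop1 and Prdm16, and the median log2 fold change of the 8 genes was 1.26, against -0.06 for all genes tested. In males on HFD, 2 of the 8, Cox8b and Prdm16, were higher in SAT (18.6% of all genes were called higher), and in females on HFD 2, Ppargc1a and Prdm16 (6.39% of all genes). Medians of the 8 genes were 0.43 and 0.42.

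Prdm16, a transcriptional coregulator that steers precursors to brown and beige fates, was higher in SAT in each of the 3 comparisons. On chow, SAT libraries of WT mice held 6.53, 6.45, 5.25 and 7.97 CPM and those of KO mice 13.6, 11.6, 14.3 and 5.02 CPM, against 3.51, 5.54, 2.504 and 4.09 CPM and 3.29, 2.66, 3.38 and 4.38 CPM in VAT. In males on HFD the 8 SAT libraries lay between 9.74 and 14.6 CPM, with a median of 12.8, and the 8 VAT libraries between 3.57 and 7.87 CPM. In females the 7 SAT libraries held 8.96 to 15.4 CPM and the 7 VAT libraries 2.89 to 8.17 CPM. The depots did not overlap on HFD in either sex and overlapped on chow. The log2 fold change was 1.23 (SE 0.19) in males on chow, 1.31 (SE 0.19) in males on HFD and 1.12 (SE 0.20) in females, with adjusted p-values of 9.29e-06, 2.20e-06 and 0.000234 by edgeR, and the call held with every library left out in turn. Reads of the opposite-strand gene B230104I21Rik, which overlaps an exon, cannot be separated if strand was not used in counting.

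Cox8b, the heart and muscle form of subunit VIII that brown fat also uses, was 3.93 to 31.8 CPM in the 8 chow SAT libraries, with a median of 9.63, and 0.929 to 5.18 CPM in VAT, with a median of 2.22. The ranges over both genotypes overlapped at their ends (log2 fold change 2.15, SE 0.34, adjusted p = 1.12e-05). Within a genotype the depots did not overlap. WT libraries held 3.93 to 9.92 CPM in SAT and 0.929 to 2.30 CPM in VAT, and KO libraries 9.34 to 31.8 and 1.44 to 5.18 CPM. On HFD in males the difference was smaller (log2 fold change 1.05, SE 0.32, adjusted p = 0.0129). The change between diets was -1.11 (SE 0.46) on the log2 scale (adjusted p = 0.0649), a call lost with 7 of the 46 libraries left out in turn, and VAT libraries at 5.30, 5.34 and 16.3 CPM lay within the SAT range. Without the highest of them the log2 fold change was 1.46. In the same comparison 6 of 7 white adipocyte markers were higher in SAT and 0 lower, and with the white adipocyte score as a covariate the log2 fold change was 0.03 (adjusted p = 0.978).

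Otop1, which encodes the proton channel otopetrin 1, was higher in SAT on chow (log2 fold change 2.19, SE 0.41, adjusted p = 0.000106). The 8 SAT libraries held 0.735 to 7.18 CPM and the 8 VAT libraries 0 to 1.68 CPM. All 4 WT libraries and 1 KO library of SAT lay within the VAT range of both genotypes, and the other 3 KO libraries lay above it. Within WT the depots did not overlap, at 0.735 to 1.06 CPM in SAT and 0 to 0.460 CPM in VAT. Within KO they overlapped, at 1.60 to 7.18 CPM in SAT and 0.369 to 1.68 CPM in VAT. On HFD the difference did not pass the test in males (95% interval of the log2 difference 0.00 to 1.29) or in females (-0.33 to 1.08).

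Ucp1 was 8.93-fold higher in chow SAT than in chow VAT in the fit (log2 fold change 3.16, SE 0.97, adjusted p = 0.0105), where SAT libraries ranged from 0.110 to 15.3 CPM and VAT libraries from 0 to 0.701 CPM. Without the highest library the log2 fold change was 2.36 (adjusted p = 0.0467). The call was lost with the muscle score as a covariate (adjusted p = 0.165) and under limma-voom with quality weights (adjusted p = 0.127). In males on HFD the log2 difference was 0.09 (SE 0.78) and in females -0.73 (SE 0.95), and neither passed the test.

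The depot call of Cox7a1, the heart and muscle form of subunit VIIa, rested on 1 library. Chow SAT of KO mice held 12.7, 1.74, 1.58 and 0.760 CPM and of WT mice 0.288, 0.403, 0.624 and 0.651 CPM, against 0.376 to 1.77 CPM in VAT. The highest was the library with the most muscle RNA, and no other chow SAT library lay above the VAT range. The log2 fold change of 1.004 (SE 0.41) (adjusted p = 0.0488) was 0.22 without it (adjusted p = 0.614) and -0.68 with the muscle score as a covariate (adjusted p = 0.209).

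Other cell types differed between the depots too. On chow, 11 of 12 skeletal muscle markers and 9 of 9 tested lymph node markers were higher in SAT, and 7 of 7 tested epididymis markers were lower. The summed muscle markers were 68.5 to 352 CPM in WT and 172 to 21217 CPM in KO chow SAT, against 57.9 to 127 and 32.7 to 234 CPM in VAT. The summed lymph node markers were 266 to 829 CPM in WT and 6.49 to 552 CPM in KO chow SAT, and at most 19.3 CPM in chow VAT, with Ccl21a at 0 in all groups. The summed epididymis markers ranged from 3.00 to 2711 CPM in WT and 1.43 to 12188 CPM in KO chow VAT. On HFD, 10 of 12 muscle markers were higher in SAT of males, and 6 of 12 muscle and 7 of 7 tested mammary epithelium markers were higher in SAT of females, beside the Prdm16, Cox8b and Ppargc1a calls there. The Prdm16 calls on HFD and the female Ppargc1a call held with the muscle score as a covariate, as did that of Cox8b. Beyond the covariate fits given here, the part of these tissues in the depot differences was not tested.

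**Figure D3:**
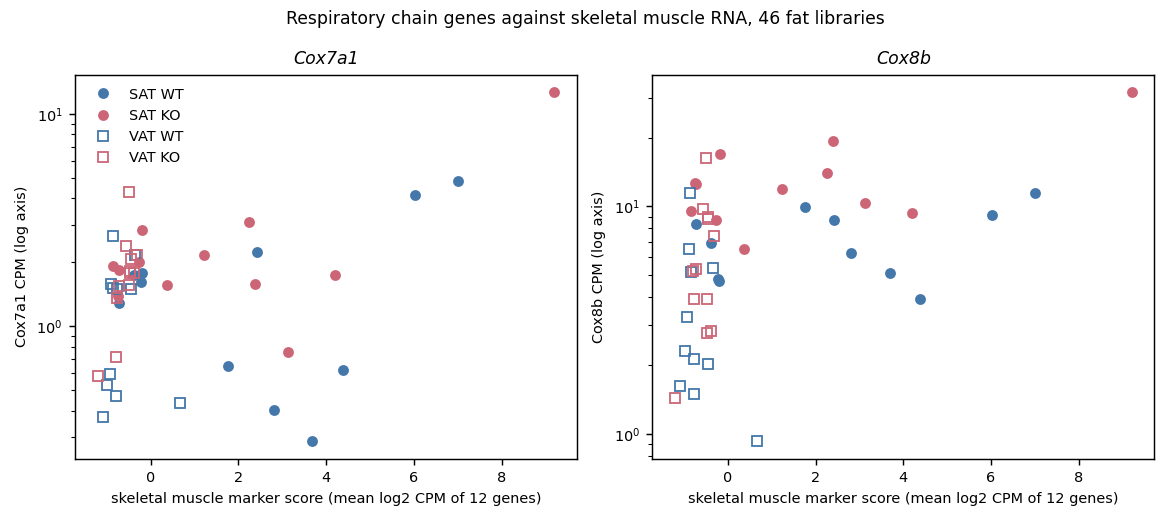
Cox7a1 (left) and Cox8b (right) CPM on a log axis are plotted against the skeletal muscle score, the mean log2 CPM of 12 muscle genes, for 46 fat libraries (filled circles SAT, open squares VAT, WT blue, KO red). The library with a score of 9.20 has the highest values of both genes, 12.7 and 31.8 CPM, and no VAT library has a score above 0.662.

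On HFD, the genes moved in both directions. In SAT of males 3 of the 8 genes rose and 2 fell, where 24.4% of all genes were called higher and 24.6% lower. In VAT of males 6 rose and 1 fell, where 23.8% of all genes were called higher and 25.3% lower. The median log2 fold changes of the 8 genes were 0.67 in SAT and 1.27 in VAT, against -0.01 and -0.02 for all genes tested.

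Otop1 had the largest rise of the 8 genes with diet in both depots. In VAT the WT libraries held 0.460, 0.0929, 0.250 and 0 CPM on chow and 2.23, 12.03, 9.35 and 5.35 CPM on HFD, and the KO libraries 0.369, 1.68, 0.520 and 1.67 CPM on chow and 13.3, 8.73, 8.26 and 13.1 CPM on HFD. All 8 HFD libraries lay above all 8 chow libraries, and the fitted difference was 19.6-fold (log2 fold change 4.29, SE 0.40, adjusted p = 3.18e-10). In SAT the WT libraries went from 1.06, 0.807, 0.735 and 0.814 CPM on chow to 6.77, 10.5, 11.1 and 12.6 CPM on HFD and the KO libraries from 6.49, 4.76, 7.18 and 1.60 CPM to 20.3, 12.9, 20.7 and 17.6 CPM. Within each genotype the diets did not overlap, and the fitted difference was 6.73-fold (log2 fold change 2.75, SE 0.36, adjusted p = 4.11e-07). Both calls held with every library left out and under all 11 alternatives. The diet difference was itself larger in VAT than in SAT (log2 difference of differences -1.54 (SE 0.52), adjusted p = 0.0218), beside a background of 18.4% of genes called lower in this comparison, where 3 of the 8 genes, Otop1, Cox8b and Ucp1, were called.

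Ppargc1a, the coactivator that drives mitochondrial biogenesis, was lower on HFD in both depots in the fit, but in VAT only the WT libraries fell. In SAT the WT libraries held 6.81, 7.75, 6.24 and 10.1 CPM on chow and 4.28, 5.07, 4.44 and 5.17 CPM on HFD, and the KO libraries 11.6, 5.09, 11.4 and 5.19 and 4.25, 5.13, 3.82 and 3.01 CPM (log2 fold change -0.84, SE 0.22, adjusted p = 0.00243). In VAT the WT libraries held 12.5, 8.83, 8.14 and 6.34 CPM on chow and 1.78, 3.97, 2.08 and 3.07 CPM on HFD, without overlap, while the KO libraries held 4.95, 2.09, 3.64 and 6.30 and 5.09, 4.62, 2.72 and 4.12 CPM, which overlapped (log2 fold change -0.87, SE 0.22, adjusted p = 0.00174). The VAT fit averages the genotypes: means went from 8.95 to 2.73 CPM in WT and from 4.24 to 4.14 CPM in KO. The calls held with each library left out in turn. In females on HFD Ppargc1a was higher in SAT than in VAT (log2 fold change 1.02, SE 0.24, adjusted p = 0.00394), with 3.78 to 8.15 CPM against 2.04 to 4.87 CPM.

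Dio2, the deiodinase that makes active thyroid hormone inside brown adipocytes, rose on HFD in SAT (log2 fold change 1.33, SE 0.43, adjusted p = 0.0119) and in VAT (log2 fold change 1.75, SE 0.42, adjusted p = 0.000943) from a low level. The 8 chow VAT libraries held 0.0649 to 0.797 CPM and the HFD libraries 0.297 to 1.88 CPM, with 1 HFD library inside the chow range. In SAT the ranges were 0 to 0.633 and 0.471 to 1.19 CPM. Elovl3, an elongase of long-chain fatty acids that cold induces in brown fat, rose on HFD in VAT (log2 fold change 2.64, SE 0.72, adjusted p = 0.00312), from 0 to 0.743 CPM on chow to 0.201 to 2.76 CPM on HFD, and did not pass the test in SAT (adjusted p = 0.283). Elovl3 is abundant in liver (median 107 CPM in the liver libraries), and 4 of 5 hepatocyte markers were also higher on HFD in VAT. Summed hepatocyte markers there were 4.44 to 116 CPM in WT and 2.37 to 8.20 CPM in KO on chow, and 8.99 to 239 CPM and 22.0 to 91.7 CPM on HFD. The VAT library highest in Elovl3 on each diet, at 0.743 and 2.76 CPM, was also the one with the highest hepatocyte score, 2.97 and 3.70, and the part of liver RNA in the Elovl3 difference was not tested. Both genes overlap an opposite-strand gene, Gm26512 for Dio2 and Pitx3 for Elovl3, so their reads are uncertain at these levels if strand was not used.

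Prdm16 was higher on HFD in SAT (log2 fold change 0.57, SE 0.19, adjusted p = 0.0139) and in VAT (log2 fold change 0.49, SE 0.19, adjusted p = 0.0352). In chow SAT the WT libraries were all below 9.74 CPM, the lowest HFD SAT library, and 3 of the 4 KO libraries were above it. The SAT call was lost with the lymph node score as a covariate (log2 fold change 0.35, adjusted p = 0.366), as was that of Dio2 (log2 fold change 1.34, adjusted p = 0.113). All 9 tested lymph node markers were lower on HFD in SAT.

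Both oxidase subunits were higher on HFD in VAT. Cox7a1 was 0.376 to 1.77 CPM on chow and 0.595 to 4.28 CPM on HFD (log2 fold change 1.35, SE 0.39, adjusted p = 0.00564). In SAT its difference did not pass the test (adjusted p = 0.105), but without the library rich in muscle RNA the log2 fold change was 1.54 (adjusted p = 0.000211). Cox8b in VAT was 0.929 to 5.18 CPM on chow and 1.49 to 16.3 CPM on HFD (log2 fold change 0.95, SE 0.34, adjusted p = 0.0216). Without the highest HFD library its log2 fold change was 0.49 (adjusted p = 0.212), and without the WT library at 5.34 CPM it was 0.70 (adjusted p = 0.103). In this comparison 6 of 7 white adipocyte markers were lower on HFD and 1 was higher.

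Ucp1 fell on HFD in SAT in the fit (log2 fold change -1.89, SE 0.90, adjusted p = 0.089), but the HFD libraries of 0.0435 to 1.39 CPM overlapped the chow range of 0.110 to 15.3 CPM. Without the highest chow library the log2 fold change was -1.12 (adjusted p = 0.325), and the call was lost with 10 of the 46 libraries left out in turn. In VAT the difference of 1.18 (SE 1.04) did not pass the test, and its sign turned to -0.55 without the KO library at 7.43 CPM. The difference between the depots' diet effects was -3.07 (SE 1.37) (adjusted p = 0.0855) with all libraries and -1.37 (adjusted p = 0.482) without that library.

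Females and males were compared on HFD. In SAT 1 of the 8 genes, Otop1, was lower in females (log2 fold change -0.98, SE 0.34, adjusted p = 0.0674), where 6.9% of all genes were called lower. SAT of females held 4.55, 3.60 and 5.33 CPM in WT and 14.3, 5.86, 9.72 and 14.02 CPM in KO, against 6.77 to 20.7 CPM in males. In the same comparison 7 of 7 tested mammary epithelium markers were higher in females, with summed levels of 120.0 to 284 CPM in WT and 150.0 to 199.9 CPM in KO, against 0.303 to 0.728 and 0.109 to 9.14 CPM in males, and their part in the Otop1 difference was not tested. The call was lost with 9 of the 46 libraries left out in turn. In VAT 3 of the 8 genes were called, where 36.7% of all genes were called in either direction: Dio2 (log2 fold change -1.54, SE 0.44, adjusted p = 0.00713) and Elovl3 (log2 fold change -2.07, SE 0.72, adjusted p = 0.0279) were lower in females, and Cox8b was higher (log2 fold change 0.87, SE 0.33, adjusted p = 0.046). With the white adipocyte score as a covariate Cox8b turned to a log2 fold change of -0.57, and 6 of 7 white adipocyte markers were higher in female than in male VAT. The summed white adipocyte markers were 11699 to 15404 CPM in female WT and 5269 to 10925 CPM in male WT VAT.

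**Figure D4:**
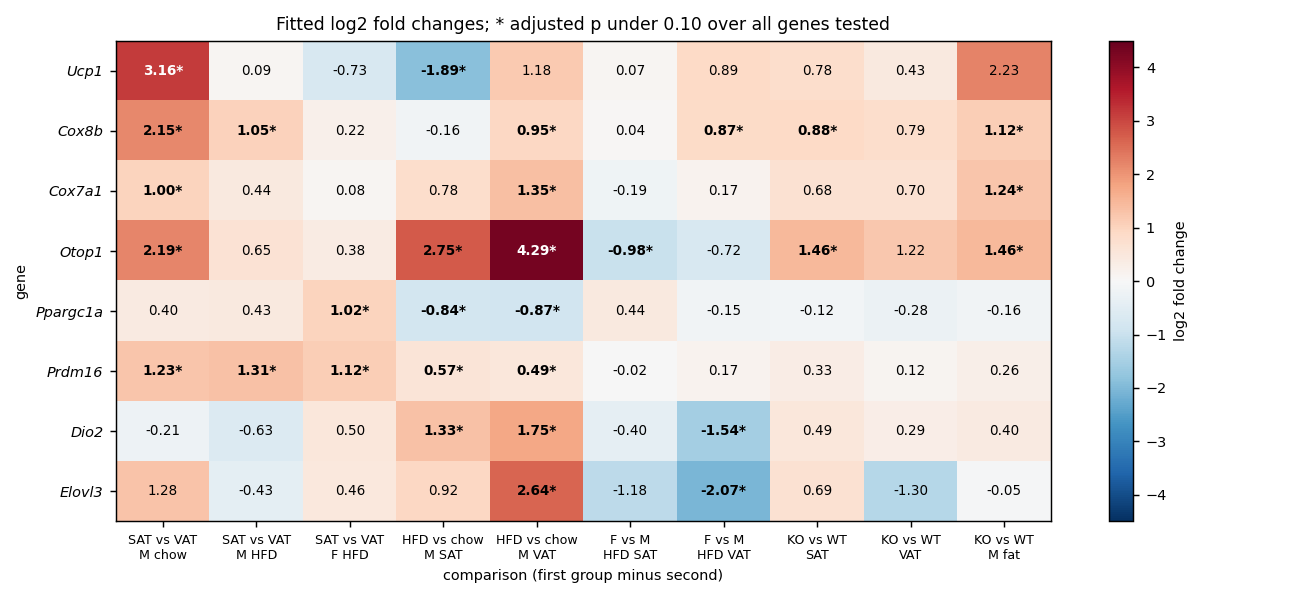
The grid gives the fitted log2 fold change of each gene (rows) in 10 comparisons (columns, the group named before "vs" minus the other), red above 0 and blue below 0, with a star where the adjusted p was under 0.10. Otop1 is starred in 6 columns with values up to 4.29 for HFD in VAT, and no gene is starred for KO in VAT.

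Between genotypes, the question was whether fat without Fam13a had other levels of these genes. In SAT, where the fit held terms for sex and for diet, Otop1 and Cox8b were higher in KO, 2 of the 8 genes, where 3.45% of 18366 genes were called higher and 0 of the 8 were lower. In VAT 0 of the 8 genes were called by edgeR, and 0 by DESeq2 or limma-voom, where edgeR called 1 gene of all (0.00527%) in either direction. Of the 8, 4 had an unadjusted p under 0.05 by edgeR. The share of all genes under that limit was not counted, so the 4 are not read as a result. In the SAT and VAT of males together 3 of the 8, Otop1, Cox8b and Cox7a1, were higher in KO, where 2.62% of 18561 genes were called higher. The male comparison shares libraries with the other 2 and is no separate evidence. Median log2 fold changes of the 8 genes were 0.68, 0.36 and 0.76, against -0.01, -0.02 and -0.03 for all genes tested.

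Otop1 was higher in every KO library of SAT than in every WT library of the same sex and diet. KO libraries of male chow SAT averaged 5.01 ± 2.49 CPM (SD, n = 4), beside 0.853 ± 0.140 CPM for the 4 WT libraries. In male HFD SAT it was 17.9 ± 3.56 CPM and 10.2 ± 2.46 CPM, and in female HFD SAT 10.98 ± 4.01 CPM (SD, n = 4) and 4.49 ± 0.865 CPM (SD, n = 3). The fitted difference was 2.74-fold (log2 fold change 1.46, SE 0.26, adjusted p = 0.00814). It lay between 1.36 and 1.56 with each of the 23 libraries left out, at adjusted p-values of 0.00206 to 0.02502, and no call was lost under 13 alternatives, in which it ranged from 0.94 to 1.52.

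In VAT the Otop1 levels of the genotypes overlapped in all 3 groups, although the KO median was above the WT median in each. The libraries of females held 1.98, 4.41 and 4.84 CPM in WT and 8.91, 3.89, 9.04 and 7.68 CPM in KO. The log2 fold change was 1.22 (SE 0.41) with an adjusted p of 0.418 over 18975 genes. The difference of the genotype effects between SAT and VAT was 0.22 (SE 0.44) (95% interval -0.67 to 1.10). In that comparison 0 of the 8 genes were called by edgeR, DESeq2 or limma-voom, where edgeR called 0.0101% of all genes. Elovl3, 1 of the 8, had an unadjusted p under 0.05 by edgeR, and the share of all genes under that limit was not counted. In male fat the Otop1 difference was 1.46 (SE 0.35) (adjusted p = 0.0339), and it was not lost with any of the 32 libraries left out.

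Tissue makeup moved with genotype in chow SAT. WT libraries there held 5374 to 10468 CPM of summed white adipocyte markers and KO libraries 9986 to 15809.7 CPM, beside the summed lymph node markers given above. In the KO comparison of SAT over all 23 libraries 1 of 7 white adipocyte markers was called higher, and 0 of 9 lymph node and 0 of 12 muscle markers were called. With the white adipocyte score as a covariate the Otop1 difference was 0.94 (adjusted p = 0.0155), with the lymph node score 1.20 (adjusted p = 0.0086) and with 6 surrogate variables 1.16 (adjusted p = 0.0213).

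Cox8b was higher in KO SAT (log2 fold change 0.88, SE 0.24, adjusted p = 0.06) and in KO fat of males (log2 fold change 1.12, SE 0.27, adjusted p = 0.0339). In chow SAT the libraries held 5.09, 6.21, 3.93 and 9.92 CPM in WT and 31.8, 9.34, 19.4 and 10.3 CPM in KO, in male HFD SAT 4.78, 8.69, 6.87 and 9.13 CPM and 17.05, 8.68, 14.03 and 6.52 CPM, and in female SAT 8.33, 11.5 and 4.70 CPM and 12.6, 12.7, 9.55 and 11.9 CPM. The KO median was above the WT median in all 6 groups of depot, sex and diet, and the genotypes overlapped in all 6. The SAT call was lost with 8 of the 23 libraries left out in turn (4 KO and 4 WT libraries, adjusted p up to 0.126), and with the white adipocyte score as a covariate (log2 fold change 0.56, adjusted p = 0.252). In male fat the call held with each of the 32 libraries left out and under 12 alternatives.

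Cox7a1 was called higher in KO fat of males (log2 fold change 1.24, SE 0.37, adjusted p = 0.077) and not in SAT or VAT of both sexes. The genotypes were apart in chow SAT, given above, and in chow VAT, where WT held 0.531, 0.434, 0.376 and 0.467 CPM and KO 0.584, 1.77, 1.36 and 0.717 CPM. Without the KO library rich in muscle RNA the difference in male fat was 0.78 (adjusted p = 0.0885), and the call was lost with 10 others left out in turn. The genotype difference in SAT was itself lower on HFD than on chow (log2 fold change -3.04, SE 0.79, adjusted p = 0.0653), 1 of the 8 genes where 1.28% of all genes were called lower, and 10 of 12 muscle markers were called lower in the same comparison. Without the library rich in muscle RNA that difference was -1.50 (adjusted p = 0.351).

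Ucp1 did not pass the test between genotypes. Its log2 difference in SAT was 0.78 (SE 0.71) with all libraries and 0.21 without the highest KO library. In male fat it was 2.23 (SE 0.76) (adjusted p = 0.124; DESeq2 0.0331), 1.44 without the highest SAT library and 0.91 without the highest VAT library. In VAT the sign turned from 0.43 to -0.63 without the KO library at 7.43 CPM. The regulators Prdm16 and Ppargc1a differed between genotypes by 0.33 (SE 0.16) and -0.12 (SE 0.16) in SAT and by 0.12 (SE 0.17) and -0.28 (SE 0.25) in VAT, Dio2 by 0.49 (SE 0.34) and 0.29 (SE 0.31) and Elovl3 by 0.69 (SE 0.55) and -1.30 (SE 0.53), and none of these passed the test. In chow VAT alone all 4 WT libraries of Ppargc1a, given above, lay above all 4 KO libraries, with means of 8.95 ± 2.59 CPM and 4.24 ± 1.80 CPM (SD, n = 4), which was noticed after the values were seen.

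**Figure D5:**
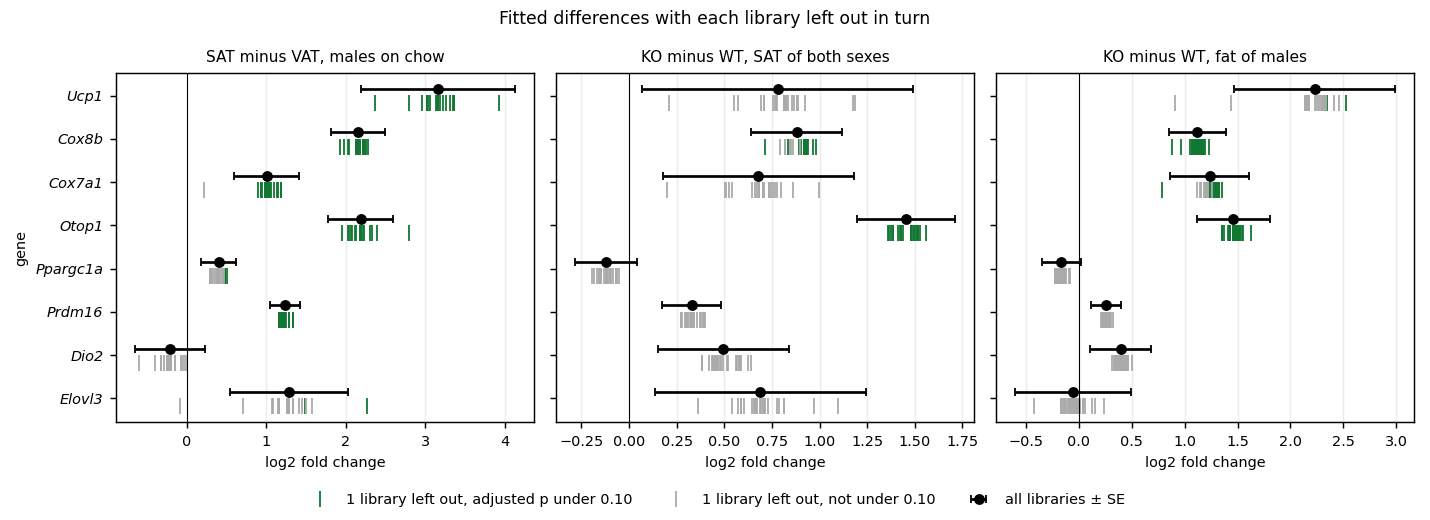
Black points with bars are log2 fold changes ± SE with all libraries for each gene in 3 comparisons, and the ticks under them are the values with 1 library left out (green where the adjusted p was under 0.10, grey where not). The Otop1 ticks for KO in SAT are all green between 1.36 and 1.56, while the Ucp1 ticks for KO in male fat spread from 0.91 to 2.52.

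The balance of the oxidase isoforms was described as a share. Cox8b and Cox7a1 are the heart and muscle forms, and Cox8a and Cox7a2 are their partners in most other tissues. Cox8b took 18.3% ± 8.05 (SD, n = 8) of Cox8b plus Cox8a TPM in chow SAT and 3.74% ± 1.73 (SD, n = 8) in chow VAT, a difference of 14.6 percentage points (exact permutation test over libraries, two-sided, p = 0.000155, adjusted p = 0.00218 over 14 tests). On HFD its share in SAT was lower at 10.8% ± 1.91 (SD, n = 8, exact permutation test, adjusted p = 0.0239). In that comparison the level of Cox8b did not pass the edgeR test (log2 fold change -0.16, SE 0.32, adjusted p = 0.733). Cox8a was higher there by edgeR (log2 fold change 0.67, SE 0.16, adjusted p = 0.000879). The mean share in chow SAT was 14.2% in WT and 22.5% in KO, and the KO mean included the library rich in muscle RNA. In VAT the Cox8b share was higher on HFD at 7.34% ± 4.39 (SD, n = 8, exact permutation test, adjusted p = 0.0506). In KO SAT it was 16.4% ± 7.49 (SD, n = 12) and in WT SAT 12.004% ± 2.69 (SD, n = 11), a stratified difference of 4.42 percentage points (exact permutation test within sex and diet, adjusted p = 0.0540), and in VAT the difference was 2.51 percentage points (adjusted p = 0.0540 by the same permutation test). Cox7a1 took 6.29% ± 9.43 (SD, n = 8) of Cox7a1 plus Cox7a2 in chow SAT and 2.57% ± 1.43 (SD, n = 8) in chow VAT, which did not pass the exact permutation test (adjusted p = 0.355). Its share was higher on HFD in VAT (4.66% ± 1.63, n = 8, exact permutation test, adjusted p = 0.0506) and in KO VAT (difference 1.23 percentage points, permutation test, adjusted p = 0.0540). Of the 14 tests, 8 passed at 10%.

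Other genes of the pathway were taken from 8 lists with 58 genes, of which 54 were tested in most comparisons. Among brown fat identity genes, 5 of 8 tested were higher in chow SAT than in chow VAT and 0 lower, where 20.8% of all genes were called higher and muscle and lymph node markers were higher too, with Lhx8, a transcription factor of the inguinal and brown depots, at a log2 fold change of 7.10 (SE 0.57, adjusted p = 1.40e-11) and Cidea at 2.24 (SE 0.49, adjusted p = 0.000608). Of 5 beige markers 3 were higher there, among them Tmem26, a membrane protein used to mark beige precursors, at 2.85 (SE 0.40, adjusted p = 1.59e-06). On HFD in SAT of males 3 of the 5 were lower and 0 higher, where 24.6% of all genes were called lower and the tested lymph node markers were lower too. By edgeR, Mpzl2 was at -3.18 (SE 0.51, adjusted p = 9.06e-06) and Tmem26 at -1.59 (SE 0.37, adjusted p = 0.000859) there. In VAT of males on HFD Mpzl2 was lower too, at -2.66 (SE 0.49), and Tmem26 was higher, at 1.05 (SE 0.39). Of the 6 adrenergic receptors and inducers tested, 4 were lower on HFD in VAT and 0 higher, where 25.3% of all genes were called lower and 23.8% higher: Adrb3, the beta-3 adrenergic receptor of adipocytes, was at -3.32 (SE 0.44, adjusted p = 1.40e-07) and Nrg4, a secreted factor of brown fat, at -2.60 (SE 0.24, adjusted p = 2.64e-10). In SAT 2 of the 6 were lower and 1 higher, with Adrb3 at -2.18 (SE 0.42, adjusted p = 9.38e-05). Of 9 coregulators and transcription factors, 5 were lower and 2 higher on HFD in VAT and 3 lower and 1 higher in SAT, where 24.6% of all genes were called lower and 24.4% higher, so that the SAT counts are near the share of all genes. Ppargc1b, the paralogue of Ppargc1a, was at -1.26 (SE 0.23, adjusted p = 6.49e-05) in SAT. Of 7 genes tested for creatine and calcium cycling, heat sources that do not use UCP1, 4 were higher on HFD in VAT and 1 lower, with Ckb, the brain-type creatine kinase, at 2.18 (SE 0.25, adjusted p = 1.19e-08). Of the 2 uncoupling protein paralogues, Ucp2 was higher on HFD in VAT, at 1.44 (SE 0.18, adjusted p = 3.77e-08), and Ucp3 lower, at -1.22 (SE 0.26, adjusted p = 0.000195). Most white adipocyte markers were lower in the same comparison, as given above. Their summed level in male chow VAT was 8332 to 15503 CPM in WT and 5808 to 16269 CPM in KO. On HFD it was 5269 to 10925 CPM and 7178 to 10443 CPM. Cell makeup and level per cell were not separated for the list genes.

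Between genotypes, 5 of 54 of these genes were higher in KO SAT and 1 lower, where 3.45% of all genes were called higher and 0.888% lower. In VAT 0 of 49 were called by edgeR, DESeq2 or limma-voom. Of the 49, 3 (Zfp516, Clstn3 and Cox4i1) had an unadjusted p under 0.05 by edgeR, and the share of all genes under that limit was not counted. In male fat 3 of 52 were higher and 2 lower, where 2.62% of all genes were called higher and 1.34% lower. Of 10 genes of fuel supply and fatty acid use, 4 were higher in KO SAT, led by Clstn3, a locus with an adipocyte form at the lipid droplet, at 1.27 (SE 0.25, adjusted p = 0.0141). Slc36a2, an amino acid transporter of the adipocyte surface, was at 0.60 (SE 0.15, adjusted p = 0.0485), and Zfp516, an activator of Ucp1, was lower at -0.20 (SE 0.06, adjusted p = 0.0745). Among 7 oxidase isoform partners 2 were higher in KO male fat, Cox4i1 at 0.42 (SE 0.11, adjusted p = 0.0405) and Cox7a2 at 0.35 (SE 0.10, adjusted p = 0.0685).

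The gene most like Ucp1 over the 46 fat libraries, by the Pearson correlation of log2 CPM among 19872 genes, was Cox8b (r = 0.61, Spearman's rho 0.54), followed by Ptgfr (0.56), Gm37769 (0.55), Cidea (0.53) and Acvr2a (0.51). After group means were subtracted the order was Gm37769 (0.63), Gm13111 (0.59), Cox8b (0.58), Vat1l (0.57) and Gtpbp10 (0.55). These are descriptions without a test, in which the libraries with the most Ucp1 weigh most and most others hold under 10 counts.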

How the data were processed

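The authors extracted RNA from SAT, VAT and liver, prepared stranded libraries and aligned the reads with STAR (2.5.3a and mm10 in the submitters' processing notes), and they deposited raw read counts per gene, 1 column per library, not normalized. Which strand column was taken is not given in the sources used here. The 8 genes, the other gene lists and the tests were chosen with earlier results of these data known. Genes named are the 8, Fam13a, the isoform partners, at most 3 called genes per list and comparison with the smallest p, and the 5 most correlated with Ucp1. The tests used edgeR 4.0.16 under R 4.3.3 (quasi-likelihood test, TMM, low-count filter, Benjamini-Hochberg FDR of 10%, log2 fold changes with the default prior count). Depot, diet and sex contrasts and their interactions came from 1 fit of 12 groups (46 fat libraries, 19873 genes), and KO from additive fits of SAT (18366 genes), VAT (18975) and male fat (18561). CPM used TMM library sizes, log2 CPM a prior count of 2 and TPM merged exon lengths. Isoform shares were compared by exact permutation over libraries. Replicate numbers follow accession order. Alternatives were other size factors, no filter, robust fit, DESeq2 1.42.0, limma 3.58.1 voom with quality weights, FDR 5%, muscle or lymph node score as covariate, 6 surrogate variables (sva 3.50.0, KO only), males alone, omission of the other flow cell and of each library. Omission of libraries over 100 CPM of Ckm and a white adipocyte score as covariate were chosen after seeing the data. The fits were tested on simulated data. Scores are means of log2 CPM over the markers. At a library median of 21694089 counts, 10 counts correspond to under 1 CPM, so Ucp1, Elovl3 and Dio2 are imprecise.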

Additional observations from a re-analysis of the deposited data

Results flagged for a closer look

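Of 80 checks for a library far from the other 3 of its group (Dixon's test), 6 were positive, and chance gives about 1 in 20. The highest library held 7.43 CPM of Ucp1 and 4.28 CPM of Cox7a1 in male HFD VAT of KO mice, which was the same library, and 12.7 CPM of Cox7a1 in male chow SAT of KO mice, the library rich in muscle RNA. The highest library of Ppargc1a in female VAT of KO mice held 3.26 CPM, and that of Elovl3 in male chow SAT of WT mice 1.06 CPM. The lowest library of Prdm16 in male HFD SAT of KO mice held 9.74 CPM.

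Differences between groups in the same contrast passed the test in 4 cases. The diet effect in SAT minus that in VAT was -1.54 on the log2 scale for Otop1, -1.11 for Cox8b and -3.07 for Ucp1, and the KO effect in SAT on HFD minus that on chow was -3.04 for Cox7a1. The calls of Cox8b, Ucp1 and Cox7a1 were lost with 7, 17 and 7 of the 46 libraries left out in turn, and that of Otop1 with none.

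In liver, which no comparison used, Elovl3 had a median of 107 CPM over 16 libraries (25.3 to 297 CPM) and Ppargc1a 22.7 CPM (12.7 to 58.8 CPM). Ucp1 was at 0 in 14 of the 16 liver libraries and Dio2 in all 16.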

How the results depend on the processing

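Counts of the 8 genes called were within 1.5 times the main count in 125 of 148 alternatives and in 508 of 538 fits with a library left out. The other counts follow. The depot comparison on chow had 5 genes called and 3 with the muscle score. That of males on HFD had 2, with 4 by limma-voom and 1 with the white adipocyte score. Diet in SAT had 5, and 2 with the lymph node score. Sex in SAT had 1, with 2 by limma-voom and 0 at FDR 5%, without the filter, without the other flow cell and without the libraries over 100 CPM of Ckm. KO in SAT had 2, and 1 at FDR 5%, without the other flow cell and with the white adipocyte score. Diet by depot had 3, and 1 at FDR 5%, by limma-voom, with the muscle or lymph node score and without the Ckm libraries. KO by diet in SAT had 1, with 4 by limma-voom and 0 at FDR 5%, with the muscle, lymph node or white adipocyte score and without the Ckm libraries. With a library left out the counts ranged from 4 to 7 (depot on chow), 2 to 4 (depot on HFD), 2 to 2 (depot in females), 4 to 6 (diet in SAT), 6 to 7 (diet in VAT), 0 to 1 (sex in SAT), 2 to 4 (sex in VAT), 1 to 2 (KO in SAT), 0 to 0 (KO in VAT and KO by depot), 2 to 4 (KO in male fat), 1 to 3 (diet by depot) and 0 to 3 (KO by diet), and the isoform shares that passed from 5 to 10.

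Signs turned as follows, on the log2 scale. With the white adipocyte score, the sex difference in VAT turned to -0.57 for Cox8b, -0.41 for Cox6a1, -0.34 for Cox8a, -0.23 for Kcnk3, -0.31 for Ucp3, -0.058 for Ppara and -0.17 for Ucp1, and the depot difference in males on HFD to -0.11 for Cox8a, -0.11 for Ppara, -0.12 for Ucp3 and -0.62 for Ucp1. With the muscle score the depot difference turned to -0.68 for Cox7a1 on chow and -0.17 for Ucp1 on HFD, which was -0.0625 by DESeq2. Ucp1 between genotypes in VAT turned to -0.65 by limma-voom and -0.033 with the lymph node score. With a library left out, Ucp1 ranged from -0.63 to 1.41 (KO in VAT), -1.23 to 0.43 (depot in females), -0.40 to 1.78 (depot in males on HFD), -0.55 to 1.96 (diet in VAT), -0.43 to 0.56 (sex in SAT) and -0.25 to 2.604 (sex in VAT), and the Cox7a1 share from -0.92 to 3.05 percentage points (diet in SAT) and -0.46 to 2.48 (KO in SAT). The cause was not tested. No paired analysis was possible because the labels give no replicate numbers that tie libraries of different groups. Depth limits Ucp1, Elovl3 and Dio2 most, with under 10 counts in 28, 26 and 16 of 46 fat libraries.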
